A study of Rattus norvegicus with 12 samples.

Results

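Control fetal pituitary was compared with control fetal hypothalamus, using the 3 arrays labelled as pituitary control and the 3 labelled as hypothalamus control, which are 6 of the 12 arrays of the series. Both tissues came from male Wistar rat fetuses on gestational day 20, and the control fetuses are labelled only as control, with no vehicle named for their dams. The other 6 arrays hold the same tissues after oral dosing of the dams with TCDD, the prototype dioxin, in corn oil on gestational day 15. They served only as a second set of arrays for the tissue difference, 3 of pituitary TCDD and 3 of hypothalamus TCDD. The dose was 1 µg/kg per the series text, whereas mg/kg stands in the sample labels. Nothing in the labels says whether an array holds 1 fetus or a pool, or whether arrays of a group came from separate litters, and every p-value therefore reflects only the scatter among these arrays, part of which may be technical.

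The pituitary is an endocrine gland with a double origin. Its anterior and intermediate lobes grow from an oral epithelial pouch and hold the cells that make thyrotropin, prolactin, growth hormone, gonadotropins and the products of proopiomelanocortin, while its neural lobe is a downgrowth of the brain. The hypothalamus is brain tissue whose neurons release peptides and dopamine into the portal vessels to drive or hold back each pituitary cell type, and send oxytocin and vasopressin axons into the neural lobe.

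Each array measured 22523 probes as bead intensities, and the values below are background-corrected, quantile-normalized log2 intensities. Between 51.6% and 52.9% of probes were detected above background (detection p below 0.05) on a pituitary array, and between 49.6% and 51.3% on a hypothalamus array. Across probes, which are not independent replicates, arrays of the pituitary correlated at 0.993 to 0.994, arrays of the hypothalamus at 0.989 to 0.991, and arrays of different tissues at 0.823 to 0.851. The number of arrays limits the precision, and intensities of different probes cannot be set against each other. Gh1, the growth hormone gene, was not analysed here. Hypothalamus control 3 carried more signal of connective tissue genes than the other hypothalamus arrays, and pituitary control 1 differed from the other pituitary arrays in several sets of genes, as given below.

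The 2 tissues differed at most of the probes that could be tested. Of 12228 probes detected on 3 or more of the 6 arrays, 8690 passed an adjusted p of 0.05 (71.1%), of which 4179 were higher in pituitary (34.2% of the probes tested) and 4511 higher in hypothalamus (36.9%). At a difference of 2-fold or more, 2062 were higher in pituitary (16.9%) and 1931 in hypothalamus (15.8%). At 8-fold or more the counts were 258 and 229. A total of 682 probes were detected on all 3 pituitary arrays and on no hypothalamus array, and 412 showed the reverse, against 9634 detected on all 6. The median difference over all tested probes, pituitary minus hypothalamus, was −0.06 on the log2 scale. Quantile normalization gives the arrays a common distribution and so holds this value near 0. Medians of gene lists are therefore relative to that scaling. In the authors' processed values, 60.2% of the calls were higher in pituitary, against 48.1% in the values used here. The arrays hold whole tissue, in which fewer cells of a type and less RNA per cell cannot be told apart.

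The genes that led in pituitary were hormone genes, regulators of the pituitary lineages and genes of connective tissue. The 15 named genes taken for this direction by their fitted difference were, in alphabetical order, Aspn, Col14a1, Col1a1, Col8a1, Dcn, Lum, Mgp, Nmu, Pdgfrl, Pitx1, Pou1f1, Prl, Prrx2, Slc47a1 and Tshb. In the hypothalamus no array detected Pitx1 or Pou1f1 and only 1 detected Aspn, Col8a1, Prl, Prrx2, Slc47a1 or Tshb, so the size and order of these differences are not determined. The 15 taken in the direction of hypothalamus were Atp6v1g2, Avp, Cck, Cst6, Dlx1, Gabra5, Gad1, Glra2, Hpca, Itih3, Omg, Pmch, Rasgef1c, Sst and Th, of which no pituitary array detected Omg or Th and 1 detected Glra2 or Rasgef1c. They include neuropeptides, transmitter enzymes and receptors and a regulator of interneuron development.

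All 5 tested pituitary hormone genes were higher in pituitary, with a median difference of 5.58 on the log2 scale. Tshb encodes the β-subunit of thyrotropin, the hormone that drives the thyroid. Its log2 level was 15.15, 15.19 and 15.19 on the pituitary arrays, against 5.62, 5.58 and 4.97 on the hypothalamus arrays, of which only 1 detected it. The difference was 9.79 ± 0.17 (SE, adjusted p = 6.12e-09) and the groups lay far apart, although the hypothalamus mean of 5.39 includes arrays at background. Prl, the prolactin gene, read 11.98, 12.51 and 11.28 in pituitary, against 5.99, 5.22 and 5.59 in hypothalamus, where 1 array detected it (6.33 ± 0.30, adjusted p = 1.69e-07). Pomc, the common precursor of corticotropin and melanocyte-stimulating hormone, read 14.87, 14.91 and 14.75 in pituitary, against 9.73, 9.46 and 9.37 in hypothalamus (5.33 ± 0.12, adjusted p = 1.49e-08). Unlike Tshb and Prl, Pomc was detected on every array of both tissues.

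Both gonadotropin β-subunit genes were present by day 20, with pituitary control 3 the lowest array for each. Lhb, of luteinizing hormone, read 11.88, 12.01 and 11.16 in pituitary, against 6.35, 5.78 and 6.16 in hypothalamus (5.58 ± 0.23, adjusted p = 8.41e-08). Fshb, of follicle-stimulating hormone, read 9.62, 9.75 and 8.48 in pituitary, against 4.94, 4.84 and 4.86 in hypothalamus, where no array detected it. It was at least 12.8-fold higher in pituitary (adjusted p = 1.15e-06). A bound of this kind sets the brighter tissue's mean against the lowest signal that counted as detected. The probe for Cga, the α-subunit that these hormones share, was detected on 2 pituitary arrays and no hypothalamus array and was therefore not tested. It averaged 5.61 in pituitary, where the lowest signals that counted as detected lay at 5.51 to 5.65. A dim probe leaves the level of the gene undetermined.

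**Figure D1:**
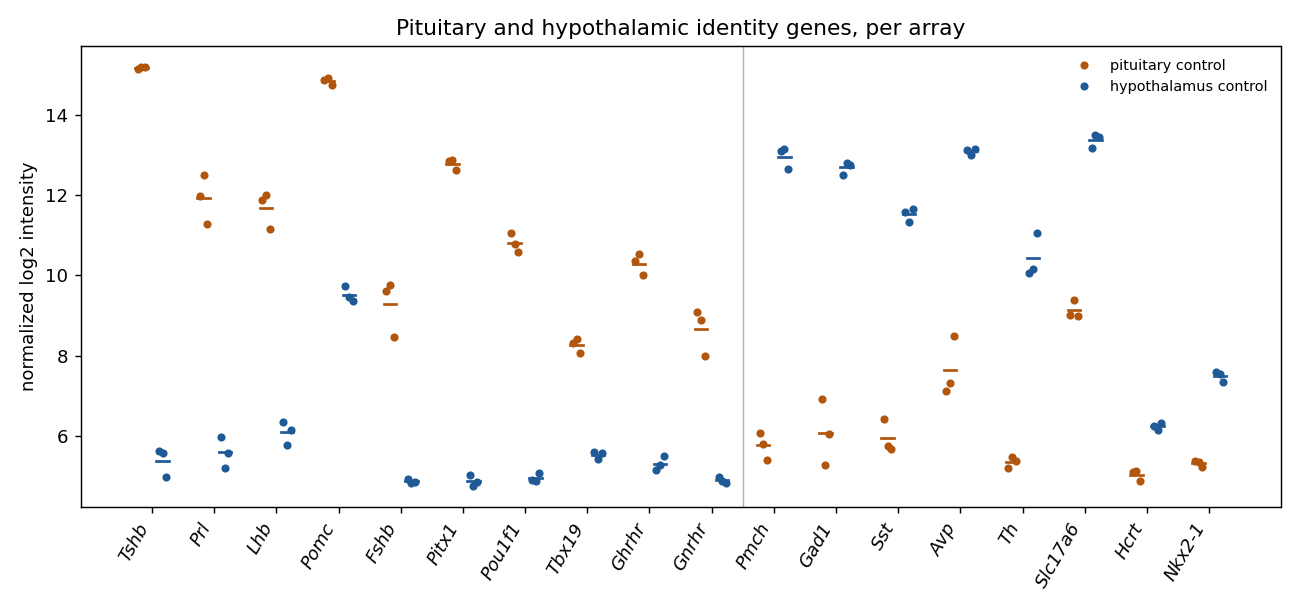
Normalized log2 intensity (vertical axis) of 18 genes on each of the 3 pituitary control arrays (left of each pair) and the 3 hypothalamus control arrays (right of each pair), with a bar at each mean. The 10 pituitary genes on the left of the dividing line and the 8 hypothalamic genes on its right show no overlap between the tissues; heights of different genes cannot be compared.

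Of 9 tested transcription factors of the pituitary lineages, 6 were higher in pituitary, 1 was higher in hypothalamus and 2 did not pass, with a median of 2.31. Pitx1, which acts from the oral pouch onward in all anterior lobe cells, read 12.85, 12.87 and 12.63 in pituitary, against 5.03, 4.75 and 4.86 in hypothalamus, where it was not detected. It was at least 145-fold higher in pituitary (adjusted p = 3.75e-09). Pou1f1, the POU factor needed for the thyrotrope, lactotrope and somatotrope lineages, read 11.06, 10.79 and 10.59 against 4.90, 4.88 and 5.08 and was at least 37.1-fold higher (adjusted p = 1.49e-08).

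Tbx19, the T-box factor of the Pomc lineage, averaged 8.27 in pituitary against 5.54 in hypothalamus, at least 6.36-fold higher (adjusted p = 1.24e-07). Gata2, which acts in thyrotropes and gonadotropes, was higher by 2.96 ± 0.24 (adjusted p = 4.01e-06) and Neurod1, which acts in early corticotropes, by 2.31 ± 0.16 (adjusted p = 2.05e-06). Neurod4 was at least 2.40-fold higher, with means of 6.87 and 5.05 (adjusted p = 4.25e-06). Isl1, a LIM factor that works in gonadotropes and thyrotropes but also in hypothalamic and other neurons, was lower in pituitary, at −0.88 ± 0.12 (adjusted p = 1.60e-04). Lhx4 (0.29) and Nr4a1 (0.09) did not pass.

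Receptor genes were divided between the tissues. Of 13 tested receptor genes that the pituitary is known to use, 7 were higher in pituitary (53.85%) and 6 in hypothalamus (46.15%), with a median of 0.56. Over all probes tested the shares were 34.2% and 36.9%. Ghrhr, through which growth hormone-releasing hormone acts on somatotropes, averaged 10.30 ± 0.27 in pituitary against 5.30 ± 0.18 in hypothalamus (SD, n = 3 each), at least 25.9-fold higher (adjusted p = 2.84e-08). Gnrhr, the gonadotropin-releasing hormone receptor of gonadotropes, read 9.10, 8.90 and 8.0 against 4.97, 4.88 and 4.84, at least 8.36-fold higher (adjusted p = 1.21e-06). As for Lhb and Fshb, pituitary control 3 was the lowest pituitary array. Thrb, the thyroid hormone receptor β of the thyrotrope feedback loop, was higher by 3.64 ± 0.13 (adjusted p = 4.32e-08), and Avpr1b, the vasopressin receptor of corticotropes, was at least 1.32-fold higher, with means of 6.01 and 5.27 (adjusted p = 5.39e-04).

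The 2 tested somatostatin receptors ran the other way. Sstr1 was lower in pituitary by −3.94 ± 0.17 (adjusted p = 9.99e-08), with means of 6.37 in pituitary and 10.31 in hypothalamus, and Sstr2 by −1.80 ± 0.13 (adjusted p = 2.62e-06). Trhr, the thyrotropin-releasing hormone receptor, was detected on no pituitary array and on all 3 hypothalamus arrays, with means of 5.30 and 6.01, at least 1.39-fold higher in hypothalamus (adjusted p = 0.00293). Drd2, the dopamine receptor through which lactotropes are held back, differed little, with means of 7.90 and 8.20. Its call (−0.30 ± 0.10, adjusted p = 0.0217) was lost without any 1 of the 3 pituitary arrays (−0.31, −0.30 and −0.29). Crhr1 was not analysed here.

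Among 18 tested genes for granules and prohormone processing, 6 were higher in pituitary (33.3%), 7 in hypothalamus (38.9%) and 5 did not pass, with a median of 0.01. These shares lie near the 34.2% and 36.9% of all probes tested, and in the authors' processed values the counts were 8 and 4. Chgb, a granin of dense-core granules, averaged 13.29 in pituitary against 12.50 in hypothalamus, and Chga and Scg2, further granins, differed by 0.79 ± 0.13 and 0.82 ± 0.16. Rab27a, a GTPase that docks granules, was higher in pituitary by 2.07 ± 0.12 (adjusted p = 6.56e-07), whereas Stx1a, the neuronal plasma-membrane syntaxin, was detected on no pituitary array and was at least 5.24-fold higher in hypothalamus, with means of 5.41 and 7.92 (adjusted p = 1.28e-07). Also higher in hypothalamus were Cadps, Syt1, Vamp2, Pcsk2 and Vgf, several of which serve synaptic vesicles as well; the call for Vgf was lost without pituitary control 1 (−0.43) or pituitary control 3 (−0.45).

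The endoplasmic reticulum machinery leaned to pituitary. Of 19 tested genes of this list, 16 were higher in pituitary, none in hypothalamus and 3 did not pass, with a median of 1.10. Kdelr3, a retrieval receptor for resident proteins, showed the widest difference (4.26 ± 0.29, adjusted p = 1.35e-06), followed by Tram1, a translocon protein (1.95 ± 0.11), and Dnajc3, a co-chaperone (1.91 ± 0.10). Ssr4 and Sec61b, both parts of the translocation machinery, differed by 1.44 ± 0.13 and 1.40 ± 0.10. Xbp1 (−0.04), a regulator of this machinery, did not pass.

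Epithelial genes were mostly higher in the gland. Of 21 tested genes for epithelial adhesion and keratins, 19 were higher in pituitary, 1 in hypothalamus and 1 did not pass, with a median of 2.77. Krt8, a keratin of simple epithelia, averaged 11.97 in pituitary against 7.01 in hypothalamus (4.96 ± 0.20, adjusted p = 7.51e-08). Epcam, an epithelial adhesion molecule, averaged 13.37 against 9.37 (4.00 ± 0.14, adjusted p = 4.57e-08). Krt7 was at least 15.5-fold higher in pituitary, with means of 9.56 and 5.30 (adjusted p = 1.93e-08), Cldn3, a tight junction claudin, was higher by 3.95 ± 0.17, and Krt19 by 3.96 ± 0.16. Not all keratins followed, since of the 16 tested genes whose symbol starts with Krt, 6 were higher in pituitary and 2 in hypothalamus (median 0.28). The listed gene higher in hypothalamus was Lamb3, by a small margin (−0.36 ± 0.11) that did not hold without pituitary control 2 (−0.29).

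Of 13 tested genes that mark pituitary stem or folliculostellate cells in the adult gland, 9 were higher in pituitary and 4 in hypothalamus, with a median of 2.22. Those higher included Prrx2 (5.79 ± 0.46), Prrx1, Aldh1a2 (4.28 ± 0.43), Fst (3.18 ± 0.21), Cdkn1c (2.83 ± 0.17) and Anxa1 (2.39 ± 0.18). Prrx1 and Prrx2 are homeobox genes that mesenchyme also uses, and Aldh1a2 makes retinoic acid. Prrx1 was below background in hypothalamus and at least 15.6-fold higher in pituitary, with means of 9.56 and 5.16 (adjusted p = 2.19e-08). Sox2, which marks stem cells of both the pituitary and the neural tube, read 9.24, 9.24 and 9.21 in pituitary, against 10.002, 9.896 and 10.112 in hypothalamus (−0.78 ± 0.10, adjusted p = 1.14e-04). S100b (−1.16 ± 0.21), Aldh1a1 (−1.25 ± 0.25) and Gfra2 (−1.40 ± 0.13) were likewise lower in pituitary.

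Nearly all connective tissue genes were higher in the gland. Of 41 tested genes for mesenchyme and extracellular matrix, 38 were higher in pituitary, none in hypothalamus and 3 did not pass, with a median of 3.77. Col1a1, the α1 chain of type I collagen, read 13.59, 13.55 and 13.72 in pituitary, against 5.86, 8.33 and 6.01 in hypothalamus (6.89 ± 0.55, adjusted p = 3.90e-06). Dcn, the proteoglycan decorin, read 14.27, 14.06 and 14.19 in pituitary, against 8.65, 9.57 and 7.19 in hypothalamus (5.71 ± 0.48, adjusted p = 5.36e-06). The pituitary arrays were alike and the hypothalamus arrays were not. Aspn (5.85 ± 0.22), Col14a1 (5.84 ± 0.23), Lum (5.79 ± 0.51) and Col3a1 (5.66 ± 0.44), all matrix genes, followed, while Igfbp4 (0.01), Mmp2 (−0.17) and Zic1 (−0.28) did not pass.

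Summed over the 41 genes, the linear intensity was 257433, 251112 and 255475 on the pituitary arrays, against 20894, 40831 and 14424 on hypothalamus controls 1, 3 and 5. Hypothalamus control 3 was the highest of its group, also for Lum, at 8.01, 9.03 and 6.48, and for Ptgds, a prostaglandin synthase of the meninges chosen after its values were seen, at 12.16, 14.07 and 9.12. The list median was 3.93 at most and 3.57 at least when any 1 of the 6 arrays was left out.

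**Figure D2:**
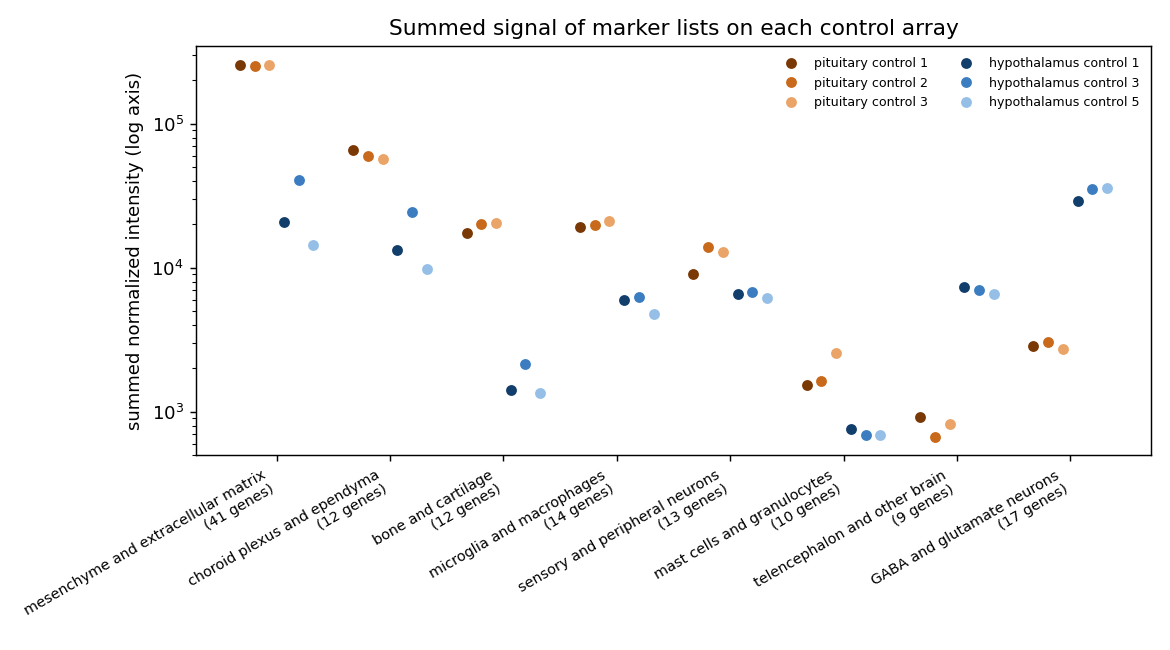
Summed normalized intensity (vertical log axis) of 8 marker lists on each of the 3 pituitary control arrays (brown) and the 3 hypothalamus control arrays (blue). Mesenchyme and matrix sums lie between 251112 and 257433 in pituitary and between 14424 and 40831 in hypothalamus, and the sums for GABA and glutamate neurons and for telencephalon show the opposite order. The telencephalon list includes Dlx1, which is also listed as a hypothalamic factor.

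Bone and cartilage genes were mostly higher in the gland, and muscle genes were divided. Of 12 tested bone and cartilage genes, 10 were higher in pituitary and 2 did not pass (median 2.72). Spp1, the matrix protein osteopontin, differed by 5.23 ± 0.32 and Ctsk, the osteoclast protease, by 4.18 ± 0.32. The summed level of the list was 17502, 20074 and 20365 in pituitary, against 1423, 2156 and 1346 in hypothalamus. Of 14 skeletal muscle genes, 8 were higher in pituitary and 2 in hypothalamus (median 0.72). Ckm, muscle creatine kinase, was at least 2.73-fold higher in pituitary, with means of 7.05 and 4.8 (adjusted p = 2.33e-06), but Acta1 (−2.18 ± 0.17) and Myh7 (−1.83 ± 0.12) were lower there. The summed level of the muscle list was lower in pituitary, at 2465, 2743 and 3223, against 4103, 3660 and 4159 in hypothalamus. The part that bone, muscle or connective tissue around the gland has in the pituitary differences was not tested.

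Vessels and blood cells followed. Of 19 tested genes of endothelium and pericytes, 12 were higher in pituitary, 1 in hypothalamus and 6 did not pass (median 1.15). Plvap, the diaphragm protein of fenestrated endothelium, averaged 13.23 in pituitary against 8.13 in hypothalamus (5.10 ± 0.12, adjusted p = 1.49e-08), and Emcn, an endothelial sialomucin, differed by 4.18 ± 0.17. The exception was Mfsd2a, a lipid transporter of the blood-brain barrier, at −2.45 ± 0.12 (adjusted p = 2.56e-07), with means of 5.90 in pituitary and 8.35 in hypothalamus. Cldn5, the claudin of barrier endothelium, did not pass (−0.18). Fenestrated vessels are known from the gland and barrier vessels from the brain.

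Of 14 tested microglia and macrophage genes, 12 were higher in pituitary and 1 in hypothalamus (median 1.75). Pf4 (3.40 ± 0.29) and Mrc1 (3.08 ± 0.26), which macrophages outside the brain parenchyma express, led the list, while Trem2 was lower in pituitary (−0.66 ± 0.14) and Cx3cr1, the fractalkine receptor of microglia, did not pass (0.16). Of 10 mast cell and granulocyte genes, 7 were higher in pituitary and 2 in hypothalamus (median 1.59). Cma1, a mast cell chymase, differed by 3.64 ± 0.30, and Tpsab1, a tryptase, was at least 7.37-fold higher in pituitary, with means of 8.49 and 4.95 (adjusted p = 8.36e-07). Of 12 blood genes, 9 were higher in pituitary and 1 in hypothalamus (median 0.99), with Hbe1 (2.94 ± 0.29) and Ahsp (2.68 ± 0.18) widest, but the adult globin probes Hba-a1 (0.07) and Hbb (−0.06) did not pass.

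Neuropeptide genes defined the hypothalamic side. Of 27 tested hypothalamic neuropeptide genes, 3 were higher in pituitary, 20 in hypothalamus and 4 did not pass, with a median of −1.60. Pmch, which encodes melanin-concentrating hormone of the lateral hypothalamus, read 6.08, 5.80 and 5.41 in pituitary, against 13.10, 13.14 and 12.64 in hypothalamus (−7.19 ± 0.19, adjusted p = 2.12e-08). Sst, somatostatin, the inhibitor of growth hormone release, read 6.43, 5.74 and 5.69 against 11.59, 11.34 and 11.66 (−5.57 ± 0.20, adjusted p = 4.26e-08). Neither gene showed any overlap between the tissues, although 2 pituitary arrays detected Pmch and all 3 detected Sst.

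The gland held detectable transcript for one of the neural lobe peptides. Avp, vasopressin, read 7.13, 7.33 and 8.49 in pituitary, against 13.12, 13.01 and 13.14 in hypothalamus (−5.44 ± 0.30, adjusted p = 4.23e-07), and every pituitary array detected it. Oxt, oxytocin, read 5.02, 4.95 and 4.85 in pituitary, below background on each array, against 9.87, 9.35 and 9.94 in hypothalamus, at least 18.2-fold higher in hypothalamus (adjusted p = 3.59e-08). Pituitary control 3 was the highest pituitary array for Avp, while the order of Oxt over arrays below background cannot be read.

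The genes of the releasing hormones of the portal system were higher in hypothalamus. Trh, the thyrotropin-releasing hormone, was lower in pituitary by −3.26 ± 0.22 (adjusted p = 1.35e-06), at 7.30, 7.66 and 6.84, against 10.80, 10.57 and 10.20 in hypothalamus. Ghrh was below background in pituitary and at least 8.80-fold higher in hypothalamus, with means of 5.38 and 8.67 (adjusted p = 1.90e-07). Crh, which drives corticotropes, was at least 4.77-fold higher in hypothalamus, with means of 4.96 and 7.79 (adjusted p = 8.34e-08). Gnrh1, which drives gonadotropes, was detected on all 6 arrays, at 6.43, 6.28 and 6.16 in pituitary, against 8.07, 8.08 and 7.52 in hypothalamus (−1.60 ± 0.16, adjusted p = 2.11e-05). Set beside the receptors, Ghrhr and Gnrhr were higher in pituitary while their ligands were higher in hypothalamus, and Trhr was higher in hypothalamus together with Trh. The Trhr probe was dim and detected on no pituitary array, which leaves the level of Trhr in the gland undetermined.

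The appetite peptides did not move as a group. Agrp, made by arcuate neurons that stimulate feeding, was lower in pituitary by −1.98 ± 0.13 (adjusted p = 1.22e-06). Npy, made by the same neurons, averaged 10.76 in pituitary and 10.72 in hypothalamus and did not pass (0.04 ± 0.16, adjusted p = 0.827). Cartpt (0.49) did not pass either. Hcrt, the orexin precursor, was at least 1.64-fold higher in hypothalamus, with means of 5.04 and 6.25 (adjusted p = 1.13e-05), and Kiss1 was detected on none of the 6 arrays.

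The 3 peptide genes of this list that were higher in pituitary were Nmu, Nmb and Penk. Nmu, neuromedin U, read 12.42, 12.65 and 11.83 in pituitary, against 6.64, 6.09 and 6.04 in hypothalamus (6.04 ± 0.23, adjusted p = 5.86e-08). Nmb, neuromedin B, averaged 11.09 against 6.29 (4.79 ± 0.19, adjusted p = 6.44e-08), and Penk, proenkephalin, 12.13 against 9.62 (2.51 ± 0.18, adjusted p = 1.81e-06). The part of the anterior lobe, the neural lobe or other cells in these levels cannot be read from whole glands.

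Of 25 tested transcription factors of the developing hypothalamus, 4 were higher in pituitary, 14 in hypothalamus and 7 did not pass, with a median of −1.80. Dlx1, which acts in GABA neuron progenitors, differed by −5.31 ± 0.41 (adjusted p = 3.14e-06), at 7.62, 5.75 and 7.38 in pituitary, against 12.29, 12.31 and 12.06 in hypothalamus. Lhx1 (−4.21 ± 0.18), Fezf1 (−4.17 ± 0.12), which in mice is needed for the ventromedial nucleus, Dlx5 (−3.29 ± 0.17) and Pou3f2 (−3.10 ± 0.27), which in mice is needed for vasopressin neurons, followed. Nkx2-1, required in the ventral forebrain for both the hypothalamus and the pituitary, read 5.38, 5.37 and 5.24 in pituitary, below background, against 7.60, 7.56 and 7.34 in hypothalamus, at least 3.91-fold higher in hypothalamus (adjusted p = 2.79e-07).

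Some regulators of the region where both tissues arise were higher in the gland or did not pass. Six6 averaged 13.04 in pituitary against 10.83 in hypothalamus (2.21 ± 0.11, adjusted p = 2.44e-07). Tbx3 was at least 3.78-fold higher in pituitary, with means of 7.52 and 5.38 (adjusted p = 5.04e-07), Irx3 was higher by 0.78 ± 0.12, and Six3 by 0.74 ± 0.20 (adjusted p = 0.00791). Pbx3 (0.08), Zic2 (−0.34) and Meis2 (−0.26), the brightest genes of the list that did not pass, and Rax (0.19), a retinal and hypothalamic homeobox gene, showed small differences. Of 12 tested genes listed for the neural lobe, which cover its glia (pituicytes) and the peptides of the axons that end there, 8 were higher in pituitary, 3 in hypothalamus (Nkx2-1 and the peptide genes Oxt and Avp) and 1 did not pass.

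Transmitter genes lay on the hypothalamic side. All 17 tested genes for GABA and glutamate signalling were higher in hypothalamus, with a median of −2.66. Gad1, the main GABA-synthesizing enzyme, read 6.92, 5.28 and 6.06 in pituitary, against 12.51, 12.81 and 12.75 in hypothalamus (−6.60 ± 0.34, adjusted p = 2.71e-07). Slc17a6, the vesicular glutamate transporter of the hypothalamus, read 9.02, 9.39 and 8.99 in pituitary, against 13.18, 13.51 and 13.44 in hypothalamus (−4.24 ± 0.14, adjusted p = 3.92e-08). Gad2 was below background in pituitary and at least 4.6-fold higher in hypothalamus, with means of 5.09 and 7.73 (adjusted p = 5.36e-08). Gabra5 (−5.17 ± 0.13), Gria2 (−3.97 ± 0.17), Gabbr2 (−3.80 ± 0.20) and Grin1 (−3.34 ± 0.17), all receptor subunits, were among the widest.

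Dopamine genes led the 14 tested monoamine and cholinergic genes, of which 2 were higher in pituitary, 11 in hypothalamus and 1 did not pass (median −0.96). Th, the rate-limiting enzyme of dopamine synthesis, read 5.20, 5.49 and 5.38 in pituitary, below background, against 10.07, 10.16 and 11.06 in hypothalamus, at least 29.8-fold higher in hypothalamus (adjusted p = 1.77e-07). Slc6a3, the dopamine transporter, read 4.99, 4.97 and 5.00 against 8.81, 8.42 and 10.43, at least 12.9-fold higher in hypothalamus (adjusted p = 1.81e-05). For both, hypothalamus control 5 was the highest array. Tph2, an enzyme of serotonin synthesis, was above background only in pituitary, at least 1.83-fold higher, with means of 6.47 and 4.96 (adjusted p = 4.39e-06).

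Markers of neurons in general were mostly higher in hypothalamus. Of 29 tested pan-neuronal and synaptic genes, none were higher in pituitary, 24 in hypothalamus and 5 did not pass, with a median of −1.37. Tubb3, a tubulin of young neurons, read 9.01, 9.22 and 9.15 in pituitary, against 13.03, 13.02 and 13.28 in hypothalamus (−3.98 ± 0.12, adjusted p = 2.37e-08). Stmn2, a growth cone protein, differed by −4.48 ± 0.23. Snap25, a synaptic membrane protein that endocrine cells use as well, read 10.84, 10.93 and 10.67 in pituitary, against 11.55, 11.67 and 11.40 in hypothalamus (−0.73 ± 0.12, adjusted p = 4.68e-04). The neurofilament genes Nefl (0.38) and Nefm (−0.45) did not pass. Without pituitary control 1, 2 genes of the list were higher in pituitary, among them Nefl (0.59, adjusted p = 0.0475).

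Of 31 tested axon guidance and adhesion genes, 4 were higher in pituitary, 20 in hypothalamus and 7 did not pass (median −0.93). Opcml, an adhesion protein of neurons, differed by −4.34 ± 0.13 and Cdh13 by −3.02 ± 0.15, and Nrp1, a receptor for semaphorins and vascular growth factors, was higher in pituitary by 1.88 ± 0.13. Of 25 tested genes listed for voltage-gated channels, some of them subunits of other channels, 4 were higher in pituitary, 19 in hypothalamus and 2 did not pass (median −1.11). Scn2a, a sodium channel of neurons, differed by −3.29 ± 0.21, and Kcnip1, a potassium channel partner, was at least 14.9-fold higher in hypothalamus, with means of 5.13 and 9.43 (adjusted p = 1.73e-08). Abcc8, a sulfonylurea receptor and subunit of a potassium channel that is not voltage-gated, was higher in pituitary (2.00 ± 0.25, adjusted p = 8.01e-05). Without pituitary control 1 the count of genes of this list higher in pituitary was 2.

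Glial genes fell on both sides. Of 28 tested genes of radial glia and astrocytes, 10 were higher in pituitary (35.7%), 16 in hypothalamus (57.1%) and 2 did not pass (median −0.63). Over all probes tested the shares were 34.2% and 36.9%. Fabp7, the radial glial lipid-binding protein, averaged 11.11 in pituitary against 15.06 in hypothalamus (−3.95 ± 0.41, adjusted p = 2.15e-05). Hes5, a Notch effector of neural progenitors, was below background in pituitary and at least 7.43-fold higher in hypothalamus, with means of 5.02 and 8.43 (adjusted p = 8.55e-08). Slc4a4, Gja1 (2.54 ± 0.24), Notch1 (2.13 ± 0.17), Nfia, Nfib and Nfix, genes not limited to glia, were among those higher in pituitary. Of 12 oligodendrocyte lineage genes, 1 was higher in pituitary, 6 in hypothalamus and 5 did not pass (median −0.27), with Olig1 widest (−4.0 ± 0.16) and Cspg4 (0.29) and Sox10 (0.15) not passing.

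Of 9 tested genes of the telencephalon and other brain regions, 8 were higher in hypothalamus and 1 did not pass (median −2.01). Neurod6, a factor of cortical neurons, averaged 5.36 in pituitary, where 1 array detected it, and 8.53 in hypothalamus (−3.17 ± 0.29). The widest was Dlx1 (−5.31), which also stands in the list of hypothalamic transcription factors above. The summed level was 917, 667 and 823 in pituitary, against 7390, 7042 and 6574 in hypothalamus. Dlx1, at 12.29, 12.31 and 12.06 on the hypothalamus arrays, is part of that sum, which is therefore not a measure of neighbouring brain. The part of neighbouring brain in the hypothalamic levels was not tested.

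**Figure D3:**
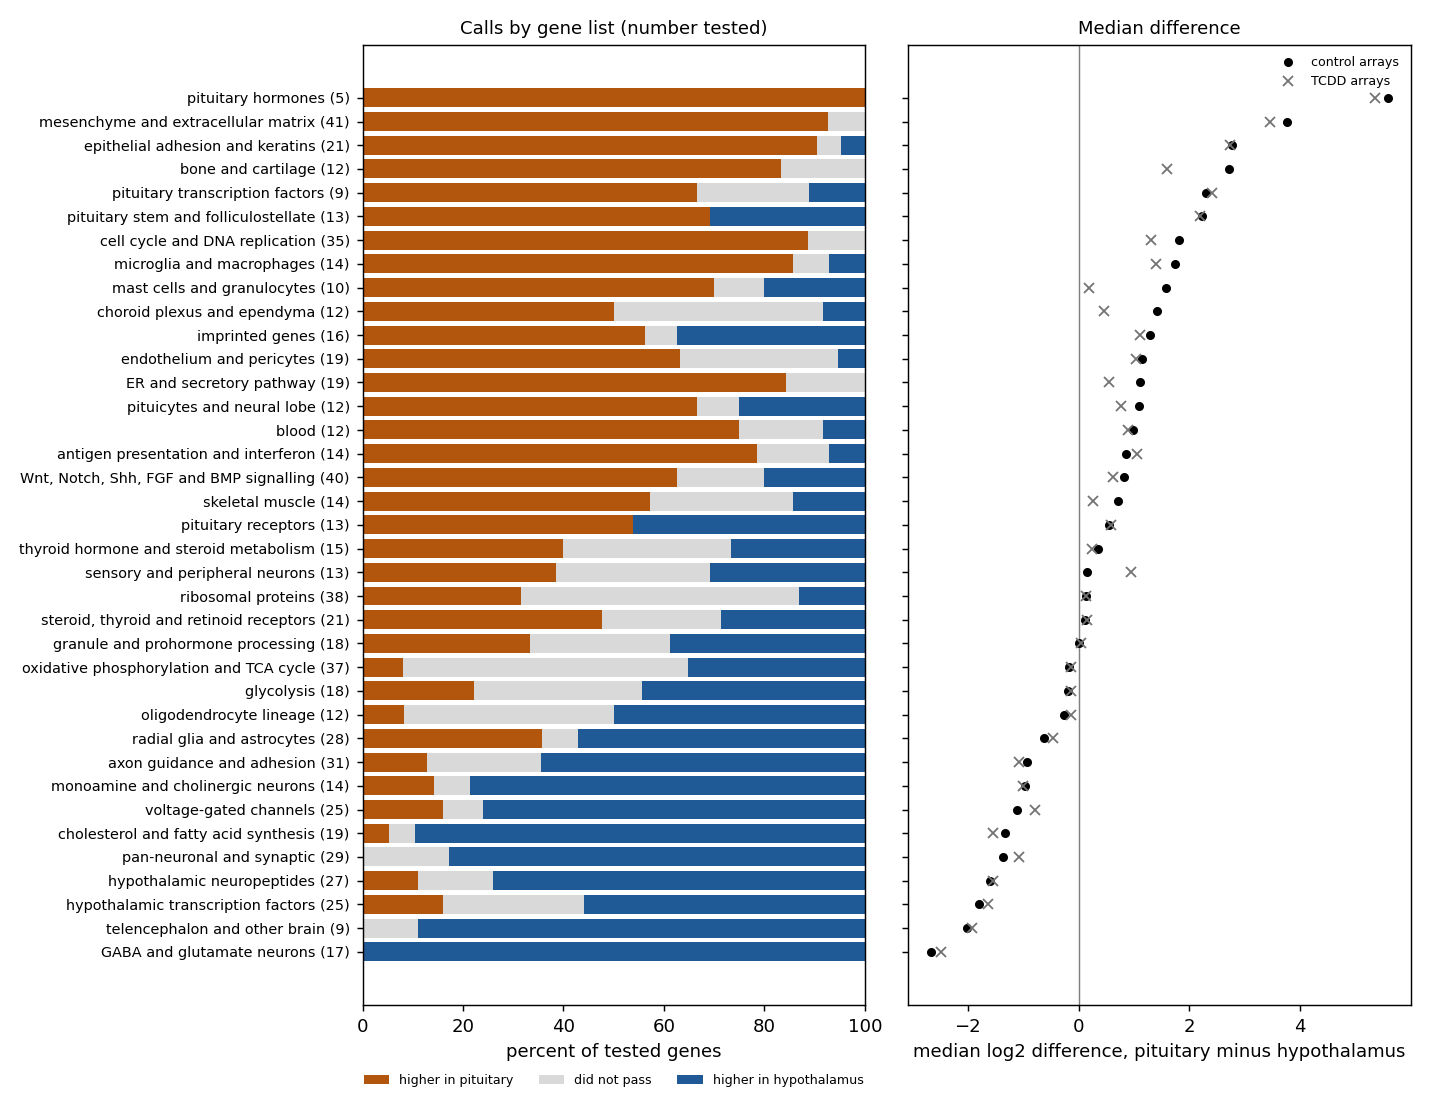
For 37 gene lists, the left panel gives the percent of tested genes higher in pituitary (brown), not past an adjusted p of 0.05 (grey) or higher in hypothalamus (blue), and the right panel the median log2 difference, pituitary minus hypothalamus, in control arrays (dots) and TCDD arrays (crosses). Medians run from −2.66 for GABA and glutamate neurons to 5.58 for pituitary hormones, and over all tested probes 34.2% were higher in pituitary and 36.9% in hypothalamus.

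Proliferation genes were higher in the gland. Of 35 tested cell cycle and DNA replication genes, 31 were higher in pituitary, none in hypothalamus and 4 did not pass, with a median of 1.82. Bub1, a mitotic checkpoint kinase, averaged 8.77 in pituitary against 6.01 in hypothalamus (2.76 ± 0.10, adjusted p = 4.97e-08), Kif20a, a mitotic kinesin, differed by 2.67 ± 0.12, and Plk1, a mitotic kinase, by 2.46 ± 0.10. Cdkn1c, an inhibitor of cell cycle entry, was also higher in pituitary, as given above. Cdkn1b (0.40), another inhibitor, Gmnn (0.24), the replication licensing inhibitor, and Chek1 (−0.20) did not pass. Which cells of the gland carry these transcripts cannot be read from whole tissue.

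Of 40 tested genes of the Wnt, Notch, Shh, FGF and BMP pathways, 25 were higher in pituitary, 8 in hypothalamus and 7 did not pass (median 0.82). Fst, the activin-binding protein follistatin, led, followed by Hey2 (2.69 ± 0.15), a Notch effector, Hhip, which binds hedgehog ligands and was at least 4.45-fold higher in pituitary (means 7.76 and 5.23, adjusted p = 1.21e-06), Fzd1 (2.47 ± 0.14), a Wnt receptor, and Tcf7l1 (2.38 ± 0.11), a Wnt effector. Its relative Tcf7l2 ran the other way (−2.01 ± 0.28, adjusted p = 1.52e-04), as did Fgf13 (−3.27 ± 0.29), an intracellular partner of sodium channels, and Wnt4 (−0.86 ± 0.13).

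Nuclear receptors of the feedback axes were divided between the tissues. Of 21 tested receptor genes for steroids, thyroid hormone, retinoids and related orphans, 10 were higher in pituitary (47.6%) and 6 in hypothalamus (28.6%). The other 5 did not pass. Over all probes tested the shares were 34.2% and 36.9%. The median of the list was 0.11, and 0.18 without pituitary control 3. The thyroid hormone receptors went in opposite directions. Thrb, as above, was higher in pituitary, and Thra averaged 11.86 in pituitary against 13.15 in hypothalamus (−1.29 ± 0.10, adjusted p = 3.63e-06). Nr0b1, which acts with steroidogenic factor in gonadotropes, was higher in pituitary by 2.86 ± 0.13 (adjusted p = 1.26e-07), and Nr1d1, a clock repressor, by 2.11 ± 0.11. The call for some retinoid receptor genes depended on the probe. For Rarb the brightest probe was called higher in hypothalamus (−0.55) and another higher in pituitary (2.23). For Rxrb the brightest probe did not pass (0.01) and another was called higher in hypothalamus (−0.53). The probe for Esr1 was detected on none of the 6 arrays, which leaves the level of the gene undetermined.

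Of 15 tested genes of thyroid hormone and steroid metabolism, 6 were higher in pituitary (40%), 4 in hypothalamus (26.7%) and 5 did not pass. Over all probes tested the shares were 34.2% and 36.9%. The median of the list was 0.36, and 0.21 without hypothalamus control 5. Slco1c1, a thyroxine transporter of brain barriers, was lower in pituitary (−3.22 ± 0.28, adjusted p = 7.77e-06), and Dio1, a deiodinase, was at least 2.05-fold higher in pituitary, with means of 6.64 and 5.12 (adjusted p = 2.69e-06). Cyp19a1, aromatase, was at least 1.59-fold higher in hypothalamus, with means of 5.23 and 6.20 (adjusted p = 3.86e-04). Ttr, the thyroxine carrier made in choroid plexus, read 12.58, 5.28 and 5.81 in pituitary, against 5.24, 5.17 and 5.87 in hypothalamus, so that its difference (2.46 ± 1.59, adjusted p = 0.191) rested on pituitary control 1. Without that array the median of this list was 0.12, against 0.36 with it, and that of 12 choroid plexus and ependyma genes was 0.48, against 1.42.

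Lipid synthesis genes were higher in hypothalamus nearly throughout the list. Of 19 tested genes of cholesterol and fatty acid synthesis, 1 was higher in pituitary, 17 in hypothalamus and 1 did not pass, with a median of −1.32. Cyp51, a demethylase of the sterol pathway, averaged 5.58 in pituitary against 8.13 in hypothalamus (−2.55 ± 0.12, adjusted p = 1.73e-07). Fdps (−2.09 ± 0.10), Mvd (−2.06 ± 0.12) and Fdft1 (−2.0 ± 0.13), enzymes of successive parts of the same pathway, and Scd (−1.91 ± 0.12), a fatty acid desaturase, followed. Srebf1, a regulator of lipid synthesis genes, was the exception at 1.07 ± 0.14 (adjusted p = 1.23e-04).

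Energy metabolism differed little in its medians. Of 37 tested genes of oxidative phosphorylation and the TCA cycle, 3 were higher in pituitary, 13 in hypothalamus and 21 did not pass (median −0.17), with Cs, citrate synthase, widest (−1.41 ± 0.12, adjusted p = 7.76e-06). These counts moved with the scaling, to 1 in pituitary and 21 in hypothalamus with median scaling (median −0.35) and to 9 and 14 in the authors' processed values. Of 18 glycolysis genes, 4 were higher in pituitary (22.2%), 8 in hypothalamus (44.4%) and 6 did not pass (median −0.18). Over all probes tested the shares were 34.2% and 36.9%. Without pituitary control 2 the count in pituitary was 2. Pkm, pyruvate kinase, stood apart at 7.67, 7.86 and 7.61 in pituitary, against 10.83, 10.71 and 10.88 in hypothalamus (−3.10 ± 0.11, adjusted p = 4.40e-08). Several ribosomal protein genes share sequence with pseudogene copies that a probe may not separate. Of 38 such genes, 12 were higher in pituitary (31.6%), 5 in hypothalamus (13.2%) and 21 did not pass (median 0.13). With median scaling 8 were higher in pituitary and 7 in hypothalamus, and in the authors' processed values 21 and 4.

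Among 16 tested genes listed as imprinted, 9 were higher in pituitary (56.25%), 6 in hypothalamus (37.5%) and 1 did not pass (median 1.30). Over all probes tested the shares were 34.2% and 36.9%. Imprinted genes are expressed from the allele of 1 parent in at least some tissues, and these arrays do not separate alleles. Dcn (5.71), the widest, as well as Igf2 and Dlk1 also belong to the connective tissue list above, so the lists overlap. Genes of growth control were among those on the pituitary side. Gnas, the gene of the stimulatory G protein subunit, differed by 4.33 ± 0.14 (adjusted p = 3.38e-08) by its brightest probe. Another Gnas probe gave 2.11 (adjusted p = 1.56e-06), so the direction was shared but the size depended on the probe. Dlk1, a Notch-related protein of endocrine cells, differed by 3.05 ± 0.12, and Igf2, the fetal growth factor, by 2.25 ± 0.44. Snurf (−1.94 ± 0.12), Ndn (−1.60 ± 0.10) and Snrpn (−1.50 ± 0.11), which lie in 1 imprinted region known from Prader-Willi syndrome, were lower in pituitary, and Snurf and Snrpn share a transcript. Nnat (−0.46 ± 0.12) was lower by the brightest probe, but another of its probes was called in the opposite direction.

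Of 14 antigen presentation and interferon genes, 11 were higher in pituitary, 1 in hypothalamus and 2 did not pass (median 0.86), with Ifitm3 (3.55 ± 0.26) and Irf1 (2.72 ± 0.11) widest. The transcript of the dioxin receptor gave more signal in the gland of the control fetus. Of 9 genes listed for its pathway with a probe, 3 could be tested. The probes for Arnt, Arnt2, Ahrr, Cyp1a1 and Cyp1a2 were detected on none of the 6 arrays. Ahr, the aryl hydrocarbon receptor, read 9.27, 9.24 and 9.46 in pituitary, against 6.56, 6.24 and 6.76 in hypothalamus (2.81 ± 0.14, adjusted p = 2.79e-07). Cyp1b1, a cytochrome P450 that this receptor is known to induce, read 11.06, 10.79 and 11.30 in pituitary, against 7.19, 7.61 and 5.99 in hypothalamus (4.12 ± 0.35, adjusted p = 6.44e-06), where its order over the arrays was that of the connective tissue sum. Nqo1 did not pass (0.09).

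Arrays within a tissue differed in some further genes. Prph, a neurofilament of peripheral neurons, read 8.93, 12.09 and 11.58 on pituitary controls 1, 2 and 3, against 7.93, 7.88 and 8.29 in hypothalamus (2.83 ± 0.67, adjusted p = 0.00418). Scn10a, a sodium channel of sensory neurons, read 6.02, 8.76 and 8.14 in pituitary, against 6.25, 6.84 and 6.83 in hypothalamus, and did not pass (1.00 ± 0.58, adjusted p = 0.15). Pituitary control 1 was low for both, and without it the difference was 3.84 for Prph and 1.82 for Scn10a, which then passed (adjusted p = 1.68e-04). The list of 13 tested genes of sensory and peripheral neurons had 5 genes higher in pituitary (38.5%) and 4 in hypothalamus (30.8%). These shares lie near the 34.2% and 36.9% of all probes tested. The median of the list was 0.15. It was 0.01 without hypothalamus control 1, 0.29 without hypothalamus control 5, 0.27 without pituitary control 1 and 0.01 without pituitary control 3.

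Promoter sequences of 4 genes that define the tissues are shown because the letters of well-known regulatory motifs can be read in them. They run from 250 bases before to 50 bases after the first start listed by RefSeq on GRCr8, 5′ to 3′ on the gene's strand. Capitals mark TATAAA and ATGNATA, a core of sites bound by Pou1f1, in Prl (chr17:38298168-38298467, minus strand), TGACCTT, a half-site of nuclear receptors such as steroidogenic factor, and TATAAA in Lhb (chr1:105037207-105037506, plus strand), and TGACGTCA, the cAMP response element, in Sst (chr11:90461296-90461595, plus strand) and Th (chr1:207508169-207508468, minus strand). Motifs were searched on both strands, and in Prl the marked TATAAA reads as its reverse complement. Sst holds ATGNATA as well, as its reverse complement from base 41, left in lower case.
Prl: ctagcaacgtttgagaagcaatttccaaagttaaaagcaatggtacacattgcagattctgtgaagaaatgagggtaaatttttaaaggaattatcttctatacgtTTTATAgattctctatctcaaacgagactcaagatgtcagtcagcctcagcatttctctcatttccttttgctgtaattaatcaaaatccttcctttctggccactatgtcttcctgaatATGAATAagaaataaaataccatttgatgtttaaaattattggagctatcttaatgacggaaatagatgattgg
Lhb: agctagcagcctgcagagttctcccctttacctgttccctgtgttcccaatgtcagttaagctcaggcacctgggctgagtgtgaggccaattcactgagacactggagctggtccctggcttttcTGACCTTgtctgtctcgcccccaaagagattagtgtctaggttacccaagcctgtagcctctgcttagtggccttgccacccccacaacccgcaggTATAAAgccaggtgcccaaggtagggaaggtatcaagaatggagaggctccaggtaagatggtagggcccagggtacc
Sst: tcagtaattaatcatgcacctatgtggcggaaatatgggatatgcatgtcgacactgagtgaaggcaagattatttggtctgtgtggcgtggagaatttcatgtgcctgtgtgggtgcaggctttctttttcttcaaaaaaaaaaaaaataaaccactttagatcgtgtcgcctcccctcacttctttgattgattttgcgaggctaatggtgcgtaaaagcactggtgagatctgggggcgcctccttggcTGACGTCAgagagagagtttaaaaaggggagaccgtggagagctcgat
Th: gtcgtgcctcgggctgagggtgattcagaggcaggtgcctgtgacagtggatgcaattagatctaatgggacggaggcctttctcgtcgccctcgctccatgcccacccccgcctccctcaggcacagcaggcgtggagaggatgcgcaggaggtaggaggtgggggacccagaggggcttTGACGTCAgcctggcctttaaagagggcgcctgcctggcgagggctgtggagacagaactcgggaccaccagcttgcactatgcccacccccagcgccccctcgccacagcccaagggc

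A match is a description of the letters and not a site. Across the first listed promoters of 27457 genes, 14.3% held TATAAA, 9.59% ATGNATA, 4.37% TGACCTT and 1.91% TGACGTCA, and across 7219 tested genes with a promoter the shares were 7.47%, 3.86%, 2.67% and 3.17%. Among the genes at least 8-fold higher in pituitary, 162 of 217 had a promoter, and 16.7% of those held TATAAA, 3.70% ATGNATA, 4.32% TGACCTT and 0.617% TGACGTCA. Among the genes at least 8-fold higher in hypothalamus, 119 of 156 had one, and 5.88% held TATAAA, 8.40% ATGNATA, 1.68% TGACCTT and 5.04% TGACGTCA. The median number of CG dinucleotides in a promoter was 12 for the pituitary set, 19 for the hypothalamus set and 20 for all tested genes. No test was made of these shares.

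The tissue difference was also measured on the 6 TCDD arrays, which share no array with the controls. Of the 8690 control calls, 7595 (87.4%) were called in the same direction there, and 6 were called in the opposite direction. Of the 3993 calls at 2-fold or more, 3919 (98.2%) held. Some list medians held less well. On the TCDD arrays the median was 0.19 for mast cells and granulocytes, against 1.59 on the control arrays. It was 0.46 against 1.42 for choroid plexus and ependyma and 0.55 against 1.10 for the endoplasmic reticulum list. For bone and cartilage it was 1.60 against 2.72, and for sensory and peripheral neurons 0.95 against 0.15. For pituitary hormones it was 5.35 against 5.58. Among genes detected on 2 or more control arrays of each tissue, Pomc differed by 5.35 on the TCDD arrays, against 5.33 on the control arrays, Col1a1 by 6.62 against 6.89, Pmch by −7.30 against −7.19 and Gad1 by −6.83 against −6.60. The difference of Lhb was smaller, at 3.66 on the TCDD arrays against 5.58 on the control arrays. Fshb, which no hypothalamus control array detected, read 5.38, 5.63 and 6.66 on pituitary TCDD arrays, against 4.87, 4.87 and 4.90 on hypothalamus TCDD arrays.

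**Figure D4:**
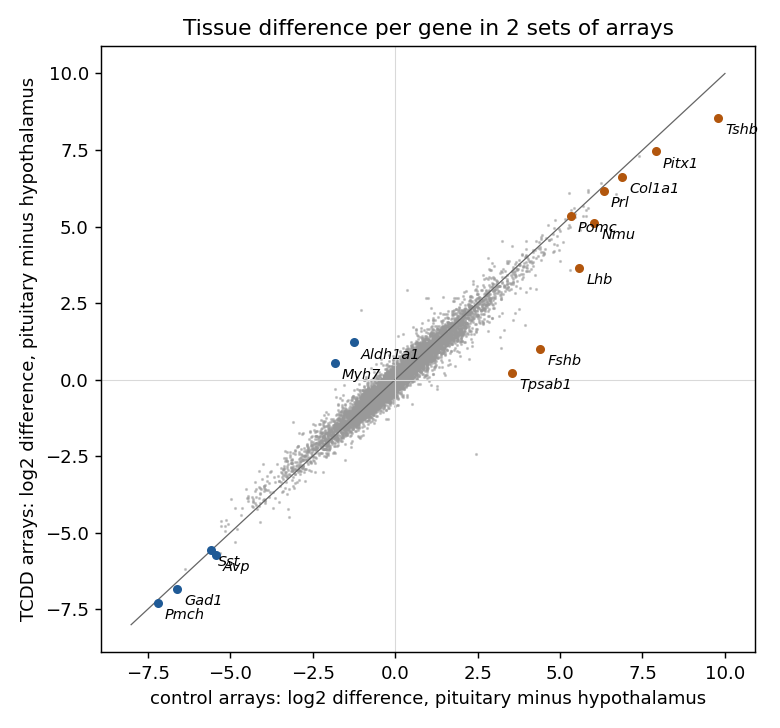
Log2 difference, pituitary minus hypothalamus, of each tested gene on the 6 control arrays (horizontal axis) and on the 6 TCDD arrays (vertical axis), with the line of equal values. Pomc, Col1a1, Pmch and Gad1 lie near the line, while Lhb (3.66 on TCDD and 5.58 on control arrays), Aldh1a1 (1.22 and −1.25), Myh7 (0.56 and −1.83), Fshb and Tpsab1 lie off it; for Fshb, Tpsab1 and Pitx1 no hypothalamus control array was above background, so their positions are not exact.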

How the data were processed

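Array intensities were analysed as deposited. Per the labels' protocols, biotin-labelled cRNA was made from column-purified total RNA and hybridised to Illumina RatRef-12 arrays. Per the file headers, the deposited intensity values are non-normalized, with a detection p-value beside each. The authors' processed log2 values are deposited too, with an unstated transform, and served as an alternative. The sources used here do not name the software that read the scans.

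The 6 control arrays were background-corrected and quantile-normalized together by the neqc function (limma 3.58.1, R 4.3.3, offset 16, which pulls differences of dim probes towards 0). Raw array medians ran from 103 to 120.8 intensity units. Probes with a detection p below 0.05 on 3 or more arrays were tested with limma (lmFit and eBayes, two-sided, 4 residual and 4.87 prior degrees of freedom), and p-values were adjusted over all 12228 by the Benjamini-Hochberg method. The 6 TCDD arrays were normalized and fitted in the same way.

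Symbols came from the platform annotation, 1 each for 13793 probes and none for 8730, updated through RefSeq. Symbols were known for 8886 tested probes (8729 genes), each gene represented by its brightest probe. Another probe of the same gene was called in the opposite direction in 17 of 157 cases. The members and the 38 gene lists (1082 genes, 853 of them with a probe, 687 tested) were chosen with earlier results of these data known. Named genes are the 15 widest in each direction, up to 6 called genes per direction and up to 3 of the brightest uncalled genes of each list, and a fixed set of hormone, receptor and regulator genes. The fit was tested on simulated data. Slides are not named in the files used, so batches could not be examined.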

Additional observations from a re-analysis of the deposited data

Results flagged for a closer look

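For 7 named genes the tissue difference itself was not the same on the TCDD arrays as on the control arrays, by the interaction of tissue and treatment in a limma fit of all 12 arrays (21 of 12228 probes passed, and 1479 had an unadjusted p below 0.05). The values are the tissue difference on TCDD arrays minus that on control arrays, on the log2 scale. Among pituitary hormone genes it was −3.36 for Fshb (adjusted p = 0.0200) and −1.86 for Lhb (adjusted p = 0.0329). Lhb was higher in pituitary in both sets. For Fshb the tissue difference on TCDD arrays was 1.01, and some pituitary TCDD values behind it, given above, lie near background. Among mast cell genes the change in the tissue difference was −3.28 for Tpsab1 (adjusted p = 0.0311) and −1.36 for Mcpt10 (adjusted p = 0.00826), a mast cell protease. It was 2.38 for Myh7, the slow myosin heavy chain (adjusted p = 7.99e-05), 2.47 for Aldh1a1, a retinaldehyde dehydrogenase (adjusted p = 0.0272), and 1.34 for Nqo1, a quinone reductase (adjusted p = 0.00543). For Fshb, Tpsab1 and Mcpt10 no hypothalamus control array was above background, so the size of these values is not determined. Groups of 3 arrays are too small for the outlier test used elsewhere, and none was made.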

How the results depend on the processing

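Under 15 alternatives (another normalization, background step, filter, variance model or set of arrays) the number of probes called lay between 8087 and 9402, against 8690 as reported, and no alternative other than the authors' processed values called a probe in the opposite direction (1 probe). In those processed values, whose dim end is compressed, the counts at 2-fold or more were 1078 higher in pituitary and 585 higher in hypothalamus. Leaving out 1 array gave 8087 to 8557 calls. With a replicate block, 8124 probes were called. Both tissues share only the numbers 1 and 3, and the difference in that fit rests on those arrays alone. Pituitary control 2 and hypothalamus control 5 have no partner and do not bear on it. Few residual degrees of freedom remain, so its variances lean mostly on the prior. The labels do not say that these numbers pair animals, and deviations of same-numbered arrays correlated at 0.02 and 0.03. The median of the granule list lay near 0 and turned to −0.011 without background correction, −0.037 with median scaling and −0.050 with the replicate block, and leaving out 1 array gave −0.063 (without pituitary control 2) to 0.060. In the authors' values Drd2 turned to 0.041, Epha4 to 0.22 and Cnp to 0.26. Of 394 named genes, 68 changed their side of the threshold or direction under some alternative. Without pituitary TCDD replicate 5, 7599 control calls were shared by the TCDD arrays, against 7595. With 3 arrays a group, small differences, values near background and the part of any 1 cell type stay beyond what these arrays resolve.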

Other observations

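Families of genes that share the start of their symbol were counted where 10 or more members were tested, a grouping chosen after the values were seen. All 18 tested Col genes, which encode collagens, were higher in pituitary by 2-fold or more, with a median of 3.44, against 16.9% of all tested probes. Of 12 Cldn genes, which encode claudins of tight junctions, 7 were higher in pituitary by 2-fold or more and none in hypothalamus (median 1.53), and of 11 Klf genes, which encode zinc finger transcription factors, 7 and 1 (median 1.12). Other families leaned to hypothalamus at the same threshold, at which 15.8% of all tested probes were higher in hypothalamus. Of 24 Gpr genes, which encode G protein-coupled receptors, 2 were higher in pituitary and 11 in hypothalamus (median −0.99), of 12 Rgs genes, regulators of G protein signalling, none and 6 (median −0.99), of 24 Vps genes, for vacuolar sorting, none and 7 (median −0.61), and of 13 Sema genes, the semaphorins, none and 6 (median −0.45).

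Some single genes differed widely within a tissue. Mrpl18, a mitochondrial ribosomal protein gene, read 11.73, 5.72 and 9.86 on pituitary controls 1, 2 and 3. Sncg, a synuclein of peripheral neurons, read 7.347, 10.865 and 9.996 in pituitary, against 8.29, 8.25 and 8.36 in hypothalamus, the same order over the pituitary arrays as for Prph.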
